A study of Mus musculus with 16 samples.

Results

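Transcripts of 9 genes of glycogen synthesis and breakdown (Pygm, Phka1, Phkg1, Gys1, Gbe1, Ugp2, Pgm1, Ppp1r3a, and Ppp1r3c) were described in mouse gastrocnemius, a calf muscle, mouse by mouse. The genes were listed by name and looked up by symbol among the 21923 genes of the table, where each stood on 1 line, and all 9 passed the filter on low counts in every comparison. RNA-seq of poly(A) RNA covered 16 adult mice, 4 per group, with 1 library per mouse. In the main fits, p-values measured the spread between mice of a group, which includes differences between the strains and tumor lines given below. NOR mice carried no tumor and received PBS, CAC mice carried a cachexia-inducing tumor and received PBS daily from day 9, AM mice carried the same tumors and received amiloride, a diuretic and inhibitor of exosome release, at 2 mg/kg daily from day 9, and the tumors of KD mice came from cells in which Rab27a and Rab27b, needed for exosome release, had been knocked down with shRNA. KD and NOR mice, like CAC mice, received PBS from day 9 on. All muscles were collected on day 30. In every group, replicates 1 and 2 were labelled C57BL/6 and, apart from NOR, bore subcutaneous LLC (Lewis lung carcinoma) tumors, while replicates 3 and 4 were labelled as BALB/c (spelled BABL/c) and bore CT26 (colon carcinoma) tumors. Strain and tumor line therefore cannot be told apart. The knock-down was in the tumor cells and not in the muscle of the host, so the muscle libraries hold no check of it.

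Glycogen is the glucose store that muscle draws on during contraction. Muscle glycogen phosphorylase (Pygm) cuts glucose units off as glucose 1-phosphate after phosphorylase kinase, whose muscle subunits include the regulatory alpha chain (Phka1) and the catalytic gamma chain (Phkg1), has switched it on. In the other direction, phosphoglucomutase makes glucose 1-phosphate, UDP-glucose pyrophosphorylase (Ugp2) turns it into UDP-glucose, glycogen synthase (Gys1) adds the glucose to the chain, and the branching enzyme (Gbe1) sets the branch points. Ppp1r3a and Ppp1r3c bring protein phosphatase 1 to glycogen, where it activates the synthase and inactivates phosphorylase.

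On GRCm38 (GENCODE M21), Pygm (ENSMUSG00000032648) lies at chr19:6384399-6398459 and Ppp1r3c (ENSMUSG00000067279) on the other strand at chr19:36731731-36736653. Phka1 (ENSMUSG00000034055) is X-linked, at chrX:102513975-102644246, and Phkg1 (ENSMUSG00000025537) lies at chr5:129863421-129898549. Gys1 (ENSMUSG00000003865) is at chr7:45434844-45456619, Gbe1 (ENSMUSG00000022707) at chr16:70313949-70569716, Ugp2 (ENSMUSG00000001891) at chr11:21321138-21371201, and Ppp1r3a (ENSMUSG00000042717) at chr6:14713977-14755274. All are annotated as protein-coding, and the counts are sums over each gene.

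The symbol Pgm1 needs a caution. In the deposited table it stands on ENSMUSG00000029171, on chromosome 5, whose present symbol is Pgm2, and the symbol Pgm2 stands on ENSMUSG00000025791, on chromosome 4, whose present symbol is Pgm1. Both symbols are used below as the table gives them. Per length, Pgm1 of the table averaged 6.01 FPKM (fragments per kilobase of gene, scaled to depth) over the 16 libraries, and Pgm2 of the table, which is the abundant muscle phosphoglucomutase transcript here, 265 FPKM. Pgm2 of the table is not 1 of the 9 members and is shown beside them.

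The libraries held 35913190 to 61032708 counts on genes. Summed markers of skeletal muscle, among them Ckm, Acta1, and Ttn, ran from 52342 to 168802 CPM, so the tissue label held in every library. Several libraries stood apart in transcripts of other cells. AM replicate 1 held hepatocyte markers at a summed 1671 CPM (counts scaled to TMM-normalised library size), against at most 14.1 CPM in the NOR, CAC, and KD libraries, with albumin alone at 1220.4 CPM. Lymphocyte markers summed to 0.529 to 374 CPM with low and high libraries in every group but AM, erythrocyte markers were upregulated in CAC vs. NOR (5 of 5), as were neutrophil markers (3 of 4), tendon markers were downregulated (3 of 4), and 1 of 3 endothelial markers was upregulated. Adipocyte markers summed to 250 CPM in CAC replicate 1 and to 4172 CPM in CAC replicate 3, the lowest and the highest of the 16 libraries. Erythrocyte markers were highest in KD replicate 2 (21330 CPM) and AM replicate 2 (15866 CPM). KD replicate 3 held 0 counts of 4 Y-linked genes. The sample protocol gives BALB/c mice of both sexes, while the main methods of the study give male mice. Summed fast-fibre markers ran from 66731 to 98557 CPM in NOR and from 35181 to 77768 CPM in CAC, with none of the 6 genes called and a median log2 fold change of -0.48. A score of the lymphocyte markers, chosen after seeing the data, was fitted as a covariate, and values without single libraries are given below. The part of the other marker differences in the results was not tested.

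The promoters of Pygm, Ugp2, and Ppp1r3c are shown because Ugp2 and Ppp1r3c were the members called upregulated in the CAC gastrocnemius, and Pygm, the most abundant member, had lower values in the same libraries. The sequences are from RefSeq (GRCm38.p6), from 250 bases before to 50 bases after an annotated start, read 5′ to 3′ along the gene. Capitals mark CAGCTG, an E-box of the type bound by MyoD, and ACGTG, the core of hypoxia response elements, on either strand.

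Pygm, chr19:6384158-6384457, plus strand: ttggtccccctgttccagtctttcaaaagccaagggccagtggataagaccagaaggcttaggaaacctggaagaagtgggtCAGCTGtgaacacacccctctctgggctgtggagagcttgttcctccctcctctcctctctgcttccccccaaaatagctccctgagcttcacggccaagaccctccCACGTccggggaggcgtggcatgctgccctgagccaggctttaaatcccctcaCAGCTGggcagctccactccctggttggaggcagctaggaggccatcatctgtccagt
Ugp2, chr11:21370580-21370879, minus strand: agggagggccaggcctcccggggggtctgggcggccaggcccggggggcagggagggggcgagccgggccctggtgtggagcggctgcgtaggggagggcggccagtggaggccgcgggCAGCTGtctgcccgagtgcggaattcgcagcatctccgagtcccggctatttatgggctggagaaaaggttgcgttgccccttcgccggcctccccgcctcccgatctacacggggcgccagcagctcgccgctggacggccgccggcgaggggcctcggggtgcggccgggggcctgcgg
Ugp2, second start, chr11:21371218-21371517, minus strand: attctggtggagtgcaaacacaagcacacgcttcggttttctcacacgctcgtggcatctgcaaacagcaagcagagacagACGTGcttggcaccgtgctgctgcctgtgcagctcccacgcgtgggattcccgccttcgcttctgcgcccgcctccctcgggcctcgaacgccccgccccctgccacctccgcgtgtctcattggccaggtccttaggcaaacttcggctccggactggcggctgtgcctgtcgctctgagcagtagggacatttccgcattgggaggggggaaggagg
Ppp1r3c, chr19:36736555-36736854, minus strand: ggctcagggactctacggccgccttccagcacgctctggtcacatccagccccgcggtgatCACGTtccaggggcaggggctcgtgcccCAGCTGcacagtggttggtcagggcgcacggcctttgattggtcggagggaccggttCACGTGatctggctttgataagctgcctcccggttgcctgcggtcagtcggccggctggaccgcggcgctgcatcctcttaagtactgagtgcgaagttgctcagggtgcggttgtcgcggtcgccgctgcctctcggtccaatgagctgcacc

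The Pygm window held CAGCTG 168 and 8 bases before the start and ACGTG, on the opposite strand, 61 bases before it. In the Ppp1r3c window CAGCTG stood 161 bases before the start. ACGTG stood there at 189 bases before the start on the opposite strand and, as the palindrome CACGTG read on both strands, at 104 and 103 bases before it. The first Ugp2 window held CAGCTG and the second ACGTG. Among 32851 RefSeq promoters of this length, 16.3% held CAGCTG and 19.6% held ACGTG. TAAAAATA (MEF2, in 2.72% of promoters), TGTTTAC (FoxO, 3.65%), and TGACGTCA (the cAMP response element, 1.79%) were searched on both strands and were not in these 4 windows. In the windows of the other members, which are not shown, CAGCTG was also found for Phka1, Gys1, and Ppp1r3a and ACGTG for Pgm1 of the table. Phkg1 and Gbe1 held none of these motifs, and Pgm2 of the table held ACGTG.

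Per length, Pygm was the most abundant member, at a mean of 1284 FPKM over the 16 libraries, followed by Phkg1 at 366 FPKM. Gys1, Ugp2, and Ppp1r3c averaged 217, 204, and 189.8 FPKM. Phka1 (79.2 FPKM), Ppp1r3a (40.2 FPKM), Gbe1 (23.9 FPKM), and Pgm1 (6.01 FPKM) followed. The ranges of neighbours in this order overlapped over the 16 libraries, apart from Pygm above Phkg1 and Gbe1 above Pgm1. The places of Ppp1r3c, Phkg1, Ugp2, and Gys1 in this order changed between groups. Ppp1r3c had a mean of 102 ± 37.6 FPKM in NOR and 389 ± 64.1 FPKM in CAC (SD, n = 4). In the same groups Ugp2 was at 169 ± 16.2 and 330 ± 43.6 FPKM and Phkg1 at 466 ± 32.3 and 212 ± 109 FPKM. Gys1 was at 220 ± 16.8 and 210 ± 40.7 FPKM.

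**Figure D1:**
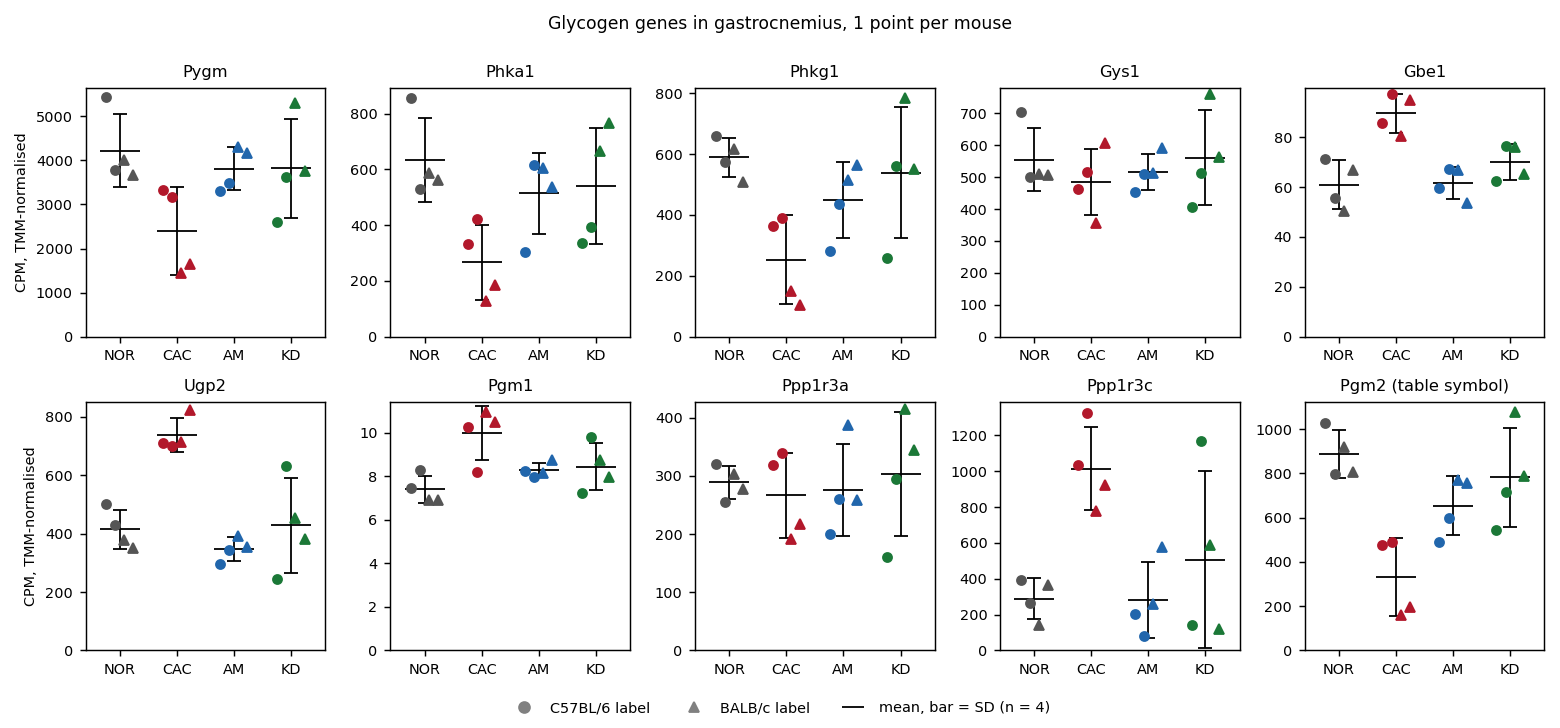
Normalised CPM of each gene (y axis, from 0) in the 4 mice of each group (x axis), with circles for libraries labelled C57BL/6, triangles for BALB/c, and the mean with its SD. The 4 CAC points lie above all NOR points for Ugp2, Gbe1, and Ppp1r3c and below them for Pygm, Phka1, Phkg1, and Pgm2 of the table.

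CAC vs. NOR addressed which glycogen genes differed in the muscle of tumor-bearing mice. Ppp1r3c, the phosphatase-targeting protein also known as PTG, and Ugp2, which makes UDP-glucose, were upregulated. Transcripts of phosphorylase and of its kinase (Pygm, Phka1, and Phkg1) had lower values in every CAC mouse than in any NOR mouse but did not pass the FDR limit. Glycogen synthase itself (Gys1) had overlapping values. Genes were called DEGs where the edgeR quasi-likelihood test gave an FDR (Benjamini-Hochberg, over all genes tested) not above 0.05 together with a fold change outside 0.667 to 1.5. This held for 2 of 9 members, both higher, against 9.45% of all 14666 genes tested (4.32% higher and 5.13% lower). With the FDR limit alone, 3 of 9 members passed, against 14.0% of genes, and 7 of 9 had an unadjusted p under 0.05, against 29.1%. The groups did not overlap for 6 of 9 members, 3 higher and 3 lower in CAC, against 12.3% and 10.5% of all genes. The median log2 fold change of the members was -0.12, beside 0.01 over all genes tested. Of all genes, 633 were called higher and 753 lower, or 959 and 619 when libraries were scaled by total counts, which shifted the median of all genes to 0.14.

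Ppp1r3c was at 392, 264, 139, and 363 CPM in NOR replicates 1 to 4 and at 1033, 1323, 779, and 926 CPM in CAC. Every CAC mouse was above every NOR mouse, and the C57BL/6-labelled CAC libraries were the highest. The log2 fold change was 1.81 (SE 0.325, FDR = 0.0114), from a mean of 289 ± 114 CPM to 1015 ± 230 CPM (SD, n = 4). Without any 1 library the fold stayed between 1.58 and 1.99 and the call held, but with all 16 libraries in 1 fit it was lost (edgeR FDR = 0.107). With the lymphocyte score as a covariate Ppp1r3c was at 1.76 (edgeR FDR = 0.0116) and remained called.

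Ugp2 stood at 503, 428, 377, and 350.1 CPM in NOR and at 709, 702, 715, and 824 CPM in CAC. The CAC mice lay close together apart from replicate 4, which was the highest. Its log2 fold change was 0.83 (SE 0.140, FDR = 0.00924, edgeR), the lowest FDR of the members. For Gbe1, NOR values were 71.3, 55.5, 50.3, and 66.8 CPM and CAC values 85.6, 97.5, 80.6, and 94.8 CPM, again without overlap. Its log2 fold change of 0.55 (SE 0.128, edgeR FDR = 0.0256) lay under the fold limit, which it passed when NOR replicate 1 (0.64), NOR replicate 4 (0.60), or CAC replicate 3 (0.62) was left out.

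Pygm was at 5449, 3773, 4003, and 3668 CPM in NOR and at 3340.3, 3164, 1438, and 1648 CPM in CAC. CAC replicates 3 and 4, the CT26-bearing mice, were far below the others, while replicates 1 and 2 lay just under the lowest NOR mouse. The log2 fold change was -0.82 (SE 0.312, edgeR FDR = 0.120). Phka1 had NOR values of 857, 529, 587, and 563 CPM and CAC values of 334, 421, 126, and 186 CPM, a log2 fold change of -1.25 (SE 0.367, edgeR FDR = 0.0561). Phkg1 had NOR values of 659, 574, 616, and 508 CPM and CAC values of 365, 391, 151, and 105 CPM, a log2 fold change of -1.22 (SE 0.401, edgeR FDR = 0.0788). As for Pygm, CAC replicates 3 and 4 were the lowest mice for both kinase genes. The same libraries were the lowest for summed fast-fibre markers, at 35181 and 35845 CPM against 77768 and 65138 CPM in CAC replicates 1 and 2, and for summed skeletal muscle markers, at 52342 and 76548 CPM against 116442 and 106929 CPM. Both sums include Myh4 and Tnnt3. In CAC replicate 4, Ckm, Acta1, Myh4, and Tnnt3 were lower than in CAC replicates 1 and 2, but Ttn (3602 CPM) and Mb (2681 CPM) were the highest of the 4 CAC mice. Summed slow-fibre markers were at 2761, 1184, 1021, and 2834 CPM in CAC replicates 1 to 4. The part of fibre type and muscle content in the lower values of Pygm, Phka1, and Phkg1 was not tested.

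With the labelled strain as a covariate all of these 3 were called downregulated (edgeR FDR = 0.0323 for Pygm, 0.0180 for Phka1, and 0.0238 for Phkg1), as they were by DESeq2 (adjusted p = 0.0299, 0.00346, and 0.00966). More genes were called in these fits in general, 10.2% of all genes with strain as a covariate and 13.1% by DESeq2. Phka1 was called in 6 of 12 alternatives, these 2 and limma-voom, total-count scaling, all 16 libraries in 1 fit, and the lymphocyte score as a covariate, and also without CAC replicate 2 (edgeR FDR = 0.0346). Over single libraries left out, Pygm kept a log2 fold change of -1.02 to -0.61. Of Phkg1, 9.68% of the exonic bases overlap Sumf2, and 6.28% of its 31-base words are shared with other genes, most often Atp5g1. For Pygm 1.18% of such words are shared, most often with Pygb. How many reads of these genes came from the shared stretches was not tested. Fewer muscle fibres and less RNA per fibre cannot be told apart in such bulk libraries.

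Pgm2 of the table was the 1 downregulated transcript of the phosphoglucomutase step. It was at 1026, 798, 918, and 808 CPM in NOR and at 476, 490.0, 162, and 197 CPM in CAC, with every CAC mouse lower and replicates 3 and 4 lowest. Its log2 fold change was -1.42 (SE 0.369, edgeR FDR = 0.0374), and 13.6% of its exonic bases overlap Itgb3bp. The call was lost when any 1 NOR library or CAC replicate 4 was left out. Pgm1 of the table ran from 6.92 to 8.28 CPM in NOR and from 8.20 to 10.96 CPM in CAC (log2 fold change 0.43, edgeR FDR = 0.0691).

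Gys1 was at 704, 499, 511, and 506 CPM in NOR and at 462, 515, 357, and 607 CPM in CAC. The ranges overlapped, with CAC replicate 3 lowest and NOR replicate 1 highest of the 8 mice. The log2 fold change was -0.19 (SE 0.190, edgeR FDR = 0.557). Ppp1r3a, the muscle glycogen-targeting subunit of protein phosphatase 1, was at 319.6, 255, 303, and 277 CPM in NOR and at 319, 339, 191, and 217 CPM in CAC. Its log2 fold change was -0.12 (SE 0.196, edgeR FDR = 0.756), and it was 0.03 without CAC replicate 3.

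**Figure D2:**
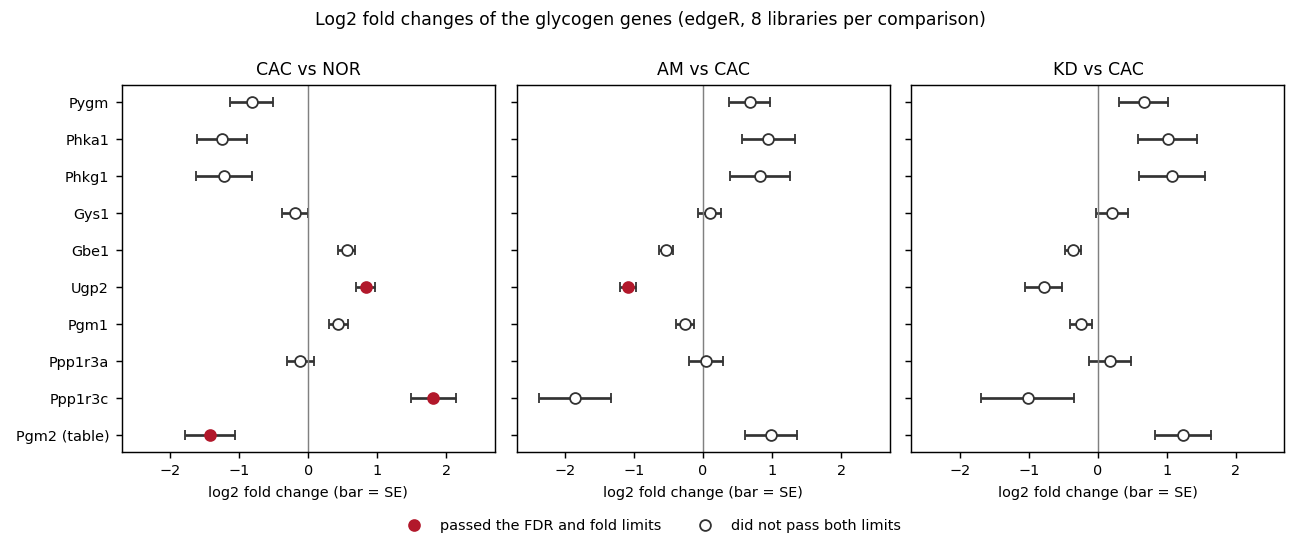
Log2 fold changes with SE (x axis) of the 9 members and Pgm2 of the table (y axis) in 3 comparisons of 8 libraries each, with filled points for DEGs. Filled points are Ugp2, Ppp1r3c, and Pgm2 in CAC vs. NOR and Ugp2 in AM vs. CAC, and CAC libraries enter all 3 panels.

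The labelled strains differed in the size of several of these values. In CAC vs. NOR, the difference of mean log2 CPM of Pygm was -0.48 in C57BL/6-labelled mice and -1.32 in BALB/c-labelled mice (2 against 2 libraries each). For Phkg1 these differences were -0.70 and -2.15, and for Phka1 -0.84 and -1.91. Ppp1r3c differed by 1.86 and 1.92, Gbe1 by 0.54 and 0.59, and Ugp2 by 0.60 and 1.08, so the higher members had the same direction in both strains. The interaction of strain and condition did not pass the FDR limit for any of the 9 members or for any gene (0 of 14666 by edgeR, 0 by limma-voom). At an unadjusted p under 0.05 it was 4 of 9 members (Pygm, Phka1, Phkg1, and Ppp1r3a), against 4.89% of all genes. The lowest member value was that of Phkg1 (edgeR FDR = 0.558).

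**Figure D3:**
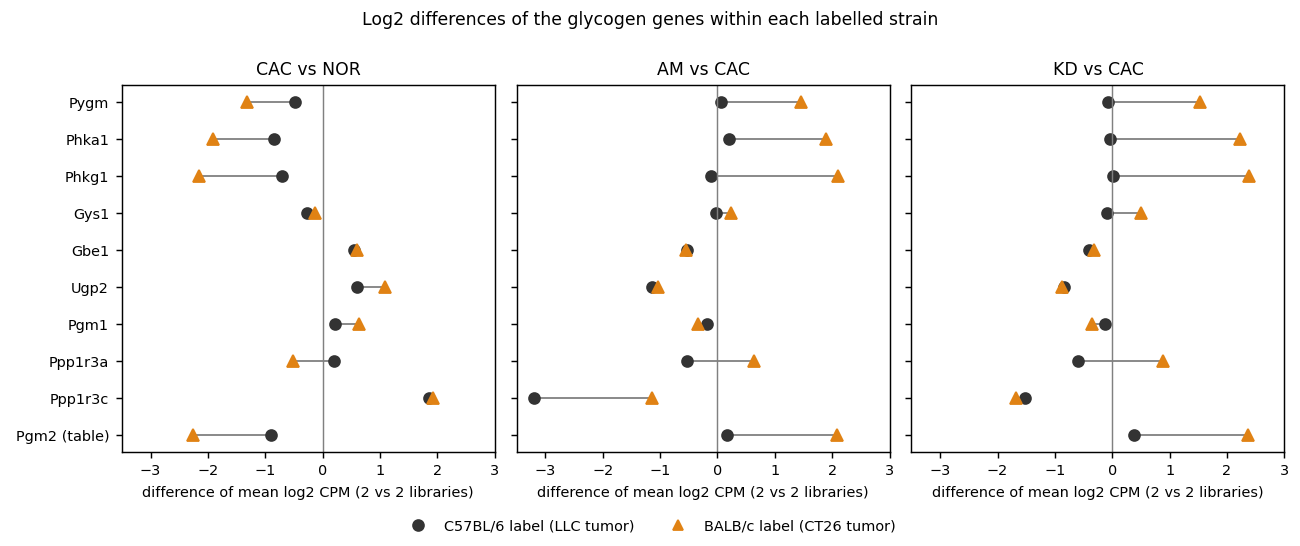
Difference of mean log2 CPM (x axis) within C57BL/6-labelled mice (circles, LLC tumors) and BALB/c-labelled mice (triangles, CT26 tumors) for each gene (y axis), from 2 against 2 libraries. Pygm, Phka1, Phkg1, and Pgm2 of the table lie farther from 0 in BALB/c-labelled mice in all 3 comparisons, which share the CAC libraries, and no interaction passed the FDR limit.

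AM vs. CAC asked which of these genes differed with amiloride. The same 4 CAC libraries served here and in CAC vs. NOR, so a CAC library that is high or low moves both. Ugp2 was downregulated, and Ppp1r3c had lower values in every AM mouse but a wide spread. Phosphorylase and its kinase subunits had higher means in AM with overlapping ranges. Of the 9 members, 1 was a DEG, against 3.66% of 14674 genes tested (1.63% higher and 2.03% lower). The FDR limit alone was passed by 2 of 9, against 4.98% of genes, and 4 of 9 had an unadjusted p under 0.05, against 21.7% of genes. The groups did not overlap for 3 members, all lower in AM, against 9.63% of all genes, and none was higher in every AM mouse, against 6.08%. The members' median log2 fold change was 0.05, beside 0.01 over all genes. In the same comparison 3 of 4 tendon markers were called upregulated (median log2 fold change 1.73), with sums of 276 to 421 CPM in AM against 62.7 to 158 CPM in CAC, and no marker of the other lists was called. The part of tendon in the values of the members was not tested.

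Ugp2 was at 295, 346, 394, and 353 CPM in AM replicates 1 to 4, below each of the 4 CAC mice at 702 to 824 CPM. The log2 fold change was -1.09 (SE 0.117, edgeR FDR = 0.00500), and it stayed between -1.14 and -1.02 without any 1 library. Gbe1 was at 59.6, 67.1, 66.7, and 53.7 CPM in AM, also below every CAC mouse. With a log2 fold change of -0.53 (SE 0.102, edgeR FDR = 0.0254) it passed the FDR limit and not the fold limit. Ppp1r3c was at 202, 80.9, 257, and 579.7 CPM, with AM replicate 4 nearest to CAC. Its log2 fold change was -1.85 (SE 0.522, edgeR FDR = 0.0826), and without AM replicate 4 it was called downregulated (-2.51, edgeR FDR = 0.0354), as it was by DESeq2 (adjusted p = 0.00167), which called 7.63% of all genes.

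Pygm was at 3302, 3489, 4298, and 4173 CPM in AM. Only AM replicate 1 lay inside the CAC range, below CAC replicate 1, and this library was the one with hepatocyte markers. The log2 fold change was 0.67 (SE 0.297, edgeR FDR = 0.235) and 0.74 without AM replicate 1. Phka1 was at 303, 615, 605, and 535 CPM and Phkg1 at 280.2, 436, 515, and 565 CPM, again with AM replicate 1 the lowest and inside the CAC range. Their log2 fold changes were 0.95 and 0.83 (edgeR FDR = 0.200 and 0.318) and 1.14 and 1.00 without AM replicate 1 (edgeR FDR = 0.163 and 0.276). Pgm2 of the table was at 490.1, 599, 768, and 757 CPM, above all CAC mice by a margin of less than 1 CPM in AM replicate 1 (log2 fold change 0.98, edgeR FDR = 0.177).

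Gys1 was at 452, 509, 515, and 590.3 CPM in AM (log2 fold change 0.10, edgeR FDR = 0.803), within the CAC range. Ppp1r3a was at 199, 259.9, 387, and 258 CPM (0.05, edgeR FDR = 0.936) and Pgm1 of the table at 7.96 to 8.76 CPM (-0.26, edgeR FDR = 0.286). By labelled strain, Pygm differed by 0.06 in C57BL/6 and 1.46 in BALB/c, Phkg1 by -0.11 and 2.10, and Phka1 by 0.20 and 1.89. The unadjusted interaction p was under 0.05 for 5 of 9 members (the 4 above and Ppp1r3c), against 12.4% of genes, with 0 passing the FDR limit by edgeR or limma-voom.

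KD vs. CAC asked the same of tumors with less exosome release, and again used the 4 CAC libraries. Not 1 of the 9 members was a DEG by edgeR, DESeq2, or limma-voom, which called 0.00685%, 2.28%, and 0% of 14593 genes. At an unadjusted p under 0.05 there were 3 members (Phka1, Gbe1, and Ugp2), against 11.1% of genes. Gbe1 and Ugp2 did not overlap with CAC and were lower (2 of 9, against 3.37% of genes), and none was higher in every KD mouse, against 3.63%. The median log2 fold change of the members was 0.18, beside 0.00018 over all genes.

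Ugp2 was at 245, 634, 453, and 382 CPM in KD, with replicate 2 nearest to CAC (log2 fold change -0.79, SE 0.266, edgeR FDR = 0.349). Ppp1r3c was at 143, 1171, 591, and 119.5 CPM, a wide spread with KD replicate 2 inside the CAC range and replicate 4 below the lowest NOR mouse. Its log2 fold change was -1.02 (SE 0.676, edgeR FDR = 0.628) and -1.86 without KD replicate 2 (edgeR FDR = 0.178). KD replicate 2 also had the highest summed erythrocyte markers (21330 CPM) and slow-fibre markers (6481 CPM) of the 16 libraries. Tendon markers summed to 348, 91.2, 155, and 293 CPM in KD replicates 1 to 4. The part of these cells and fibres in the values of Ugp2 and Ppp1r3c was not tested. Gbe1 ran from 62.4 to 76.7 CPM (log2 fold change -0.36, edgeR FDR = 0.343). Pgm2 of the table was at 544, 717, 1078, and 788 CPM in KD replicates 1 to 4, above every CAC mouse (log2 fold change 1.23, edgeR FDR = 0.340).

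Pygm was at 2597, 3634, 5314, and 3755 CPM in KD, so that replicate 1 lay inside the CAC range and replicate 3 near the highest NOR mouse. Phka1 was at 335, 392, 666, and 765 CPM and Phkg1 at 259, 560.3, 784, and 549.5 CPM. The log2 fold changes of Pygm, Phka1, and Phkg1 were 0.66, 1.01, and 1.08 (edgeR FDR = 0.536, 0.427, and 0.452). Within C57BL/6-labelled mice the differences of mean log2 CPM were -0.08, -0.05, and 0.01, and within BALB/c-labelled mice 1.54, 2.22, and 2.38. The unadjusted interaction p was under 0.05 for 4 of 9 members (these 3 and Ppp1r3a), against 5.65% of genes, with 0 past the FDR limit by edgeR or limma-voom. Gys1 was at 406, 512, 760.3, and 565 CPM (log2 fold change 0.20, edgeR FDR = 0.8285) and Ppp1r3a at 161, 294, 415, and 344 CPM (0.18, edgeR FDR = 0.904). KD replicate 3, the library without Y-linked counts, was the highest of the 4 for Pygm, Phkg1, Gys1, and Ppp1r3a.

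When AM and KD were compared with NOR and with each other, 0 members and 0% of genes were called by edgeR. No member had an unadjusted p under 0.05, against 9.19% of genes in AM vs. NOR, 3.54% in KD vs. NOR, and 1.11% in AM vs. KD. Groups were separated for no member, against 4.70%, 2.16%, and 0.929% of genes. DESeq2 called 0 members there too, against 0.475%, 0.210%, and 0.00678% of genes, and limma-voom 0 members and 0% of genes. Log2 fold changes of the members ran from -0.38 (Phkg1) to 0.18 (Pgm1) in AM vs. NOR, from -0.22 (Phka1) to 0.81 (Ppp1r3c) in KD vs. NOR, and from -0.84 (Ppp1r3c) to 0.01 (Pygm) in AM vs. KD. The SE of Ppp1r3c in these comparisons was 0.543, 0.705, and 0.805 in that order. The value of Ppp1r3c rested on single mice, since it was -0.03 in KD vs. NOR and -0.01 in AM vs. KD without KD replicate 2, and in AM vs. NOR it moved from -0.04 to -0.67 without AM replicate 4 and to 0.27 without AM replicate 2. With the lymphocyte score as a covariate Ppp1r3c turned from 0.81 to -0.36 in KD vs. NOR (edgeR FDR = 0.904) and from -0.84 to 0.72 in AM vs. KD (edgeR FDR = 1).

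The ratio of synthase to phosphorylase transcripts within a library does not depend on how libraries are scaled. Pygm counts per Gys1 count were 7.74, 7.56, 7.83, and 7.25 in NOR and 7.22, 6.14, 4.03, and 2.72 in CAC. NOR mice were close together, CAC replicate 1 lay just below them, and CAC replicates 3 and 4 were far lower. The log2 ratio of Gys1 to Pygm was -2.92 ± 0.0492 in NOR and -2.23 ± 0.635 in CAC (SD, n = 4), and the groups differed by 0.69 (two-sided exact permutation p = 0.0286, the smallest that 4 against 4 libraries allow). The difference was 0.20 in C57BL/6-labelled mice and 1.19 in BALB/c-labelled mice, and 0.43 without CAC replicate 4.

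In AM the log2 ratio was -2.88 ± 0.126 and in KD -2.76 ± 0.0685 (SD, n = 4). AM vs. CAC differed by -0.65 (exact permutation p = 0.0857, two-sided, n = 4 per group) and KD vs. CAC by -0.53 (exact permutation p = 0.171). Without CAC replicate 4 these differences were -0.39 and -0.27. Within C57BL/6-labelled mice they were -0.09 and -0.02.

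**Figure D4:**
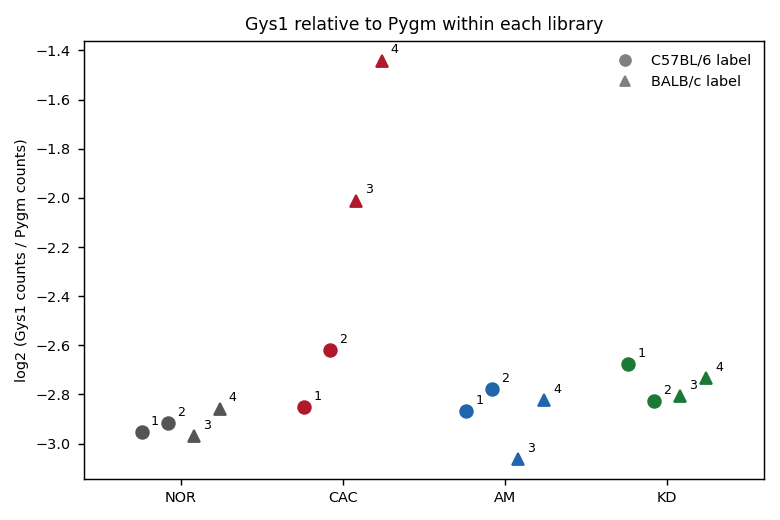
Log2 ratio of Gys1 to Pygm counts (y axis) in each library by group (x axis), numbered by replicate, with circles for C57BL/6 and triangles for BALB/c labels. CAC replicates 3 and 4 lie at -2.01 and -1.44, above all other libraries, and CAC replicate 1 lies at -2.85 beside NOR replicate 4 at -2.86.

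Of a wider list of 35 further genes of glycogen metabolism, 34 were tested in CAC vs. NOR and 4 were called, 2 up and 2 down (9.45% of all genes were). The upregulated ones were Gyg, glycogenin, the primer of new glycogen, and Gaa, the lysosomal acid alpha-glucosidase. Gyg was at 250.8, 208, 269, and 171 CPM in NOR and at 579.5, 396, 354, and 315 CPM in CAC (log2 fold change 0.87, edgeR FDR = 0.0348). Gaa was at 454, 343, 367, and 311 CPM in NOR and at 680.0, 567, 605, and 496 CPM in CAC (0.67, edgeR FDR = 0.0250). The NOR and CAC ranges of both genes were apart, with CAC replicate 1 the highest mouse.

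Pgm2 of the table (above) and Prkag3, the AMP-activated kinase gamma subunit of fast glycolytic muscle, were the downregulated ones. Prkag3 was at 199, 152, 220.1, and 144 CPM in NOR and at 81.8, 78.6, 18.7, and 25.8 CPM in CAC, with CAC replicates 3 and 4 lowest (log2 fold change -1.81, edgeR FDR = 0.0397). The count of 4 was 0 without NOR replicate 2, 3, or 4, 1 (Gaa) without NOR replicate 1, 2 (Pgm2 and Prkag3) without CAC replicate 1, and 2 (Gaa and Gyg) without CAC replicate 4. Of all genes, 544, 379, 343, and 578 were called higher and 502, 429, 385, and 636 lower without NOR replicates 1 to 4. Without CAC replicates 1 and 4 these numbers were 438 and 546 higher and 484 and 726 lower, beside 633 and 753 in the main fit. By role, 1 of 8 breakdown genes, 2 of 6 synthesis genes, and 1 of 20 regulators tested were called in the main fit, against 9.45% of all genes. The list's median log2 fold change was -0.02, beside 0.01 for all genes.

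Phkb, the beta subunit of phosphorylase kinase, was not called and had the same low mice as Pygm. It was at 314, 342, 169, and 133 CPM in CAC replicates 1 to 4 against 313 to 399.6 CPM in NOR (log2 fold change -0.53, edgeR FDR = 0.275). The phosphorylases of other tissues, Pygb (brain) and Pygl (liver), averaged 32.6 and 33.8 CPM in CAC and were not called (log2 fold change -0.39 and 0.92, edgeR FDR = 0.308 and 0.338). Slc2a4, the insulin-responsive glucose transporter, was at -0.19 and Hk2, hexokinase of muscle, at -0.19 on the log2 scale (edgeR FDR = 0.406 and 0.530).

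In AM vs. CAC, 1 of 34 was called, against 3.66% of all genes. This was Gaa, at 246, 359.8, 260.2, and 361 CPM in AM, below every CAC mouse (log2 fold change -0.93, edgeR FDR = 0.0238), and the call was lost without CAC replicate 1, 2, or 3 or AM replicate 1 or 3, where 0 genes of the list passed. Gyg was at 219, 210.1, 211, and 289 CPM in AM (-0.82, edgeR FDR = 0.0618) and Prkag3 at 95.3, 90.4, 114, and 156 CPM (1.15, edgeR FDR = 0.205). In KD vs. CAC 0 of 34 were called by edgeR, against 0.00685% of all genes, and 1 (Prkag3) by DESeq2, against 2.28%. An unadjusted p under 0.05 was found for 2 of 34, against 11.1% of all genes.

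**Figure D5:**
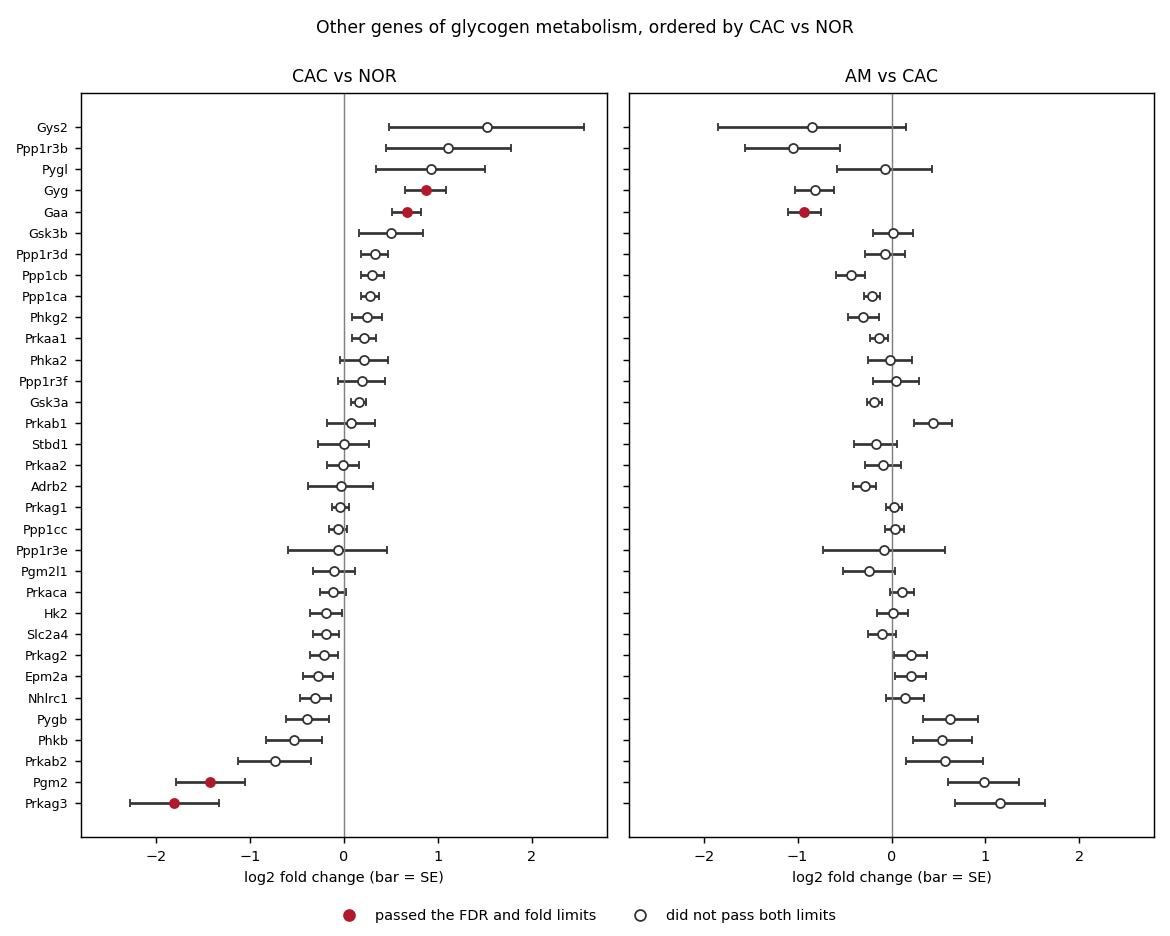
Log2 fold changes with SE (x axis) of the other glycogen genes tested, all but 1 of 34 (y axis, ordered by the left panel) in CAC vs. NOR and AM vs. CAC, which share the CAC libraries, with filled points for DEGs. Gyg, Gaa, Pgm2, and Prkag3 are filled on the left and Gaa on the right.

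The genes with the most similar course over the 16 mice were found among 13207 other genes with a mean of at least 1 CPM, by the root mean squared difference of centred log2 CPM, as a description. For Pygm these were Pfkm, the muscle phosphofructokinase (0.132), Myh4, the fast myosin heavy chain (0.141), Vdac1 (0.163), Ltbp4 (0.170), and Tpm1 (0.175). For Gys1 they were Myom2 (0.0771), St3gal2 (0.0984), Mfn1 (0.125), Gpaa1 (0.126), and D17Wsu92e (0.131). For Ppp1r3c the nearest genes were farther away, namely Nfil3 (0.482), Lrrc30 (0.505), Ip6k3 (0.610), Tsc22d3 (0.657), and Arrdc3 (0.680).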

How the data were processed

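Gastrocnemius poly(A) RNA of 16 mice (NOR, CAC, AM, and KD, n = 4) was sequenced on a HiSeq2500. The authors deposited raw counts per gene and FPKM values, which divide the same counts by depth and 1 length per gene, without pooling mice. The submitters' processing notes name fastp, Bowtie2, HISAT2, and StringTie 1.3.1 and the builds mm9 and GRCm38 without roles. The counting tool and strandedness are not given in the sources used here, so reads of overlapping genes cannot be told apart.

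For each comparison, edgeR 4.0.16 in R 4.3.3 was run on the 8 libraries concerned, with TMM factors, filterByExpr (min.count 10, min.total.count 15), and the quasi-likelihood F test, not robust. SE is the log2 fold change divided by the root of F. NOISeq, used by the authors, was not used here. CPM are TMM-normalised, and log2 CPM values have a prior count of 2. The Gys1 to Pygm ratio and single values were compared by two-sided exact permutation, whose smallest p is 0.0286 for 4 against 4 libraries. The interaction of labelled strain and condition was tested in 3 comparisons by edgeR and by limma-voom (limma 3.58.1). Alternatives were scaling by RLE or by total counts, limma-voom and DESeq2 1.42.0, 2 other count filters, no fold limit, a covariate (the labelled strain, the replicate number, or a lymphocyte score chosen after seeing the data), 1 fit of all 16 libraries, each strain alone, and each library left out. The code was tested on simulated data.

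The 9 members, the 35 further glycogen genes, and the marker lists were chosen with earlier results of these data known. Named genes were all 9 members, any of the 35, and the 5 genes most alike to Pygm, Gys1, and Ppp1r3c each. Of the 21923 identifiers, 21905 matched GENCODE M21. Promoters of all 9 members and of Pgm2 of the table were matched by gene ID in RefSeq. Of the 35 further genes, 1 is counted but not reported here by name, and Ppp1r3g was under the count filter in the first 5 comparisons. The deepest and shallowest libraries had 61032708 and 35913190 counts.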

Additional observations from a re-analysis of the deposited data

Results flagged for a closer look

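Gys1 in NOR replicate 1 was at 704 CPM, apart from the other 3 NOR mice at 499 to 511 CPM. Ugp2 in CAC replicate 4 was at 824 CPM, apart from the other 3 CAC mice at 702 to 715 CPM. Such a gap is found by chance in about 1 of 20 groups of 4 mice.

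Ppp1r3a had opposite directions in the labelled strains, with every library of 1 strain on 1 side of the mean of the compared group. In CAC vs. NOR the difference of mean log2 CPM was 0.20 in C57BL/6-labelled and -0.51 in BALB/c-labelled mice, in AM vs. CAC -0.53 and 0.63, and in KD vs. CAC -0.60 and 0.89. The comparisons share the CAC libraries. The interaction was not past the FDR limit in any of them (edgeR FDR = 0.941, 0.321, and 0.854), and strain and tumor line cannot be told apart.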

How the results depend on the processing

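In CAC vs. NOR, the 2 called members became 3 with limma-voom or the lymphocyte score (adding Phka1), 4 with total-count scaling (adding Phka1 and Gbe1), 5 with DESeq2, 5 with the labelled strain as a covariate, 0 in C57BL/6 libraries alone, and 0 in BALB/c libraries alone (2 against 2 libraries), and 2 to 3 without single libraries. With all 16 libraries in 1 fit they were Ugp2 and Phka1. The 4 called genes of the wider list became 2 with all 16 libraries in 1 fit, 0 in either strain alone, and 0 to 4 without single libraries. The ratio difference of 0.69 was 0.20 in C57BL/6 and 1.19 in BALB/c libraries and 0.43 to 0.90 without single libraries. All genes called numbered 633 up and 753 down, 839 and 1082 with DESeq2, 655 and 837 with the strain covariate, 125 and 122 in C57BL/6 libraries, and 0 in BALB/c libraries.

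In AM vs. CAC, the 1 called member became 2 without a fold limit, with total-count scaling, or with DESeq2, 0 in C57BL/6 or in BALB/c libraries alone, and 1 to 2 without single libraries. The 1 called gene of the wider list became 2 with total-count scaling or DESeq2, 0 with all 16 libraries in 1 fit, 0 in either strain alone, and 0 to 1 without single libraries. The ratio difference of -0.65 was -0.087 in C57BL/6 and -1.22 in BALB/c libraries and -0.86 to -0.39 without single libraries. All genes called numbered 239 up and 298 down and 641 and 479 with DESeq2. In KD vs. CAC, DESeq2 called 1 gene of the wider list and, of all genes, 230 higher and 102 lower, and the ratio difference was -0.017 in C57BL/6 and -1.04 in BALB/c libraries and -0.74 to -0.27 without single libraries. Causes were not tested.

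With the replicate number as a block, 2 members were called in CAC vs. NOR and 0 in AM vs. CAC (0 genes of the wider list, 0 of all genes) and in KD vs. CAC. The numbers do not pair the mice, since the correlation of same-numbered deviations ran from -0.63 to 0.59.

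Directions turned only for values that were not called. Ppp1r3a in CAC vs. NOR was 0.24 in C57BL/6 libraries and -0.25 to 0.032 without single libraries, positive only without CAC replicate 3. In AM vs. CAC in C57BL/6 libraries alone, Phkg1 was -0.073, Gys1 -0.020, and Ppp1r3a -0.51. Without single libraries Gys1 ran there from -0.030 (CAC replicate 3) to 0.22 and Ppp1r3a from -0.14 (AM replicate 3) to 0.19, with -0.08 when CAC replicate 3 and -0.03 when CAC replicate 4 was left out. In KD vs. CAC in C57BL/6 libraries, Pygm was -0.043, Phka1 -0.032, Gys1 -0.071, and Ppp1r3a -0.52. In the comparisons of AM and KD with NOR and with each other, signs differed in 18, 24, and 27 of 180 member folds each, and 0 were called. With the lymphocyte score as a covariate, the signs of Gys1 (-0.12), Ugp2 (-0.20), Ppp1r3a (-0.093), and Ppp1r3c (-0.36) turned in KD vs. NOR, that of Ppp1r3c (0.037) in AM vs. NOR, and those of 7 members in AM vs. KD, and in the 3 comparisons with CAC as a group no sign did.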

Other observations

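Among the regulators of glycogen metabolism, catalytic subunits of protein phosphatase 1 had small differences. Ppp1ca was at 173 to 213 CPM in NOR and higher in every CAC mouse, at 227 to 236 CPM (log2 fold change 0.28, edgeR FDR = 0.0862), and at 187 to 207 CPM in AM. Prkab2, a beta subunit of the AMP-activated kinase, was at 303 to 367 CPM in NOR and at 291, 296, 141, and 75.8 CPM in CAC replicates 1 to 4 (log2 fold change -0.74, edgeR FDR = 0.252). Stbd1, which tethers glycogen to membranes, had nearly equal means of 44.7 CPM in NOR and CAC.

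The liver forms of this pathway had their highest values in single libraries. Gys2, the liver glycogen synthase, was highest in KD replicate 1 (7.49 CPM) and CAC replicate 3 (6.58 CPM). Pygl was highest in the same libraries, at 126 and 60.4 CPM, while AM replicate 1, the library with hepatocyte markers, held 2.97 CPM of Gys2 and 46.9 CPM of Pygl. Summed adipocyte markers were at 2568 CPM in KD replicate 1, 4172 CPM in CAC replicate 3, and 1041 CPM in AM replicate 1. They were also high in AM replicate 2 (3448 CPM), NOR replicate 4 (2889 CPM), and KD replicate 4 (2572 CPM), where Gys2 was at 1.45, 2.19, and 1.21 CPM. KD replicates 2 and 3, with adipocyte sums of 373 and 513 CPM, held 0 CPM of Gys2. The part of other cells in these values was not tested.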
